A study of Mus musculus with 8 samples.

Results

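Brown adipocytes burn fat to make heat, and 9 genes that mark them or carry out that work were followed here: Ucp1, Cidea, Elovl3, Ppargc1a, Cox7a1, Cox8b, Dio2, Zic1 and Prdm16. They were picked by gene symbol, as 9 of the 24391 gene symbols in a count table of mouse brachiocephalic artery lesions. Of the 9, 8 passed the filter on low counts, which kept 15980 genes, and Zic1 did not. The brachiocephalic artery is the short first branch of the aortic arch, where advanced plaques form in mice, and fat lies around it. The libraries were 4 lesions from mice given an antibody against the cytokine interleukin-1β (IL1_AB), and 4 lesions from mice given immunoglobulin G (IgG_Control) were set against them. All 8 mice were of strain C57BL/6, carried a smooth muscle lineage tracing line described as wild type, and ate a Western diet for 18 weeks. Per the design text each group held 4 animals, so each library is 1 animal. The labels give no age, antibody dose, lineage tracing promoter or way of trimming the fat, so a level here is that of the whole piece of tissue. In such bulk RNA, fewer cells of a type and less RNA per cell cannot be told apart.

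In a brown adipocyte, noradrenaline from sympathetic nerves acts on β-adrenergic receptors, raises cyclic AMP and switches on protein kinase A. Fatty acids freed from the lipid droplets then fuel mitochondria whose proton gradient is short-circuited by uncoupling protein 1, so that respiration yields heat. In mice the fat around the thoracic aorta and its branches is known to resemble brown fat, in contrast to the whiter fat around the abdominal aorta.

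Counts assigned to genes ranged from 20137336 to 27100415 in IL1_AB libraries and from 21902802 to 29453014 in IgG_Control libraries. Smooth muscle genes such as Acta2 and Myh11, all 8 macrophage genes examined and the endothelial genes Pecam1, Cdh5 and Vwf had counts in all 8 libraries. The labels also name epithelial cells. Of their markers, Epcam had 0 to 9 counts in IL1_AB and 2 to 26 in IgG_Control libraries. Krt5 had 0 to 4 counts in IL1_AB and 0 to 209 in IgG_Control libraries, the highest of both in IgG_Control 1. Cdh1 had 66 to 126 counts in IL1_AB and 70 to 203 in IgG_Control libraries, and Krt8 had 2 to 34 and 13 to 250. Library IL1_AB 3 stood apart for fat. It was the highest of the 8 libraries for 7 of the 8 members kept and for 16 of 17 general adipocyte genes, against 15.2% of all genes kept, and the lowest for 5 of 6 smooth muscle genes and 8 of 12 skeletal muscle genes. IgG_Control 2 stood apart for heart muscle, with 67.4 CPM (counts scaled to library size) of Nppa and 59.6 CPM of Myh6, where no other library exceeded 2.27 and 4.26 CPM.

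Brown fat genes were among the most abundant transcripts of the lesions. Measured per exon length, Ucp1 ranked 34th of the 15980 genes kept, with a mean over the 8 libraries of 746 RPKM (CPM divided by the exon length in kilobases). Cox8b ranked 45th at 647 RPKM, Cidea 108th at 387 RPKM and Cox7a1 142nd at 330 RPKM. The other members lay far below, with Elovl3 at 20.9, Dio2 at 19.2, Ppargc1a at 8.24 and Prdm16 at 7.58 RPKM. Zic1 was close to absent at 0.0283 RPKM. In that order the ranges over libraries of neighbours overlap, both among the first 4 members and among the next 4, whereas the lowest Cox7a1 value of 232 RPKM lies above the highest Elovl3 value of 57.0 RPKM and the lowest Prdm16 value of 5.13 RPKM above the highest Zic1 value of 0.0551 RPKM. Together the 9 members took 0.200%, 0.159%, 0.483% and 0.214% of assigned counts in IL1_AB 1 to 4, against 0.214%, 0.224%, 0.165% and 0.167% in IgG_Control 1 to 4. The IL1_AB range covers the whole IgG_Control range, and IL1_AB 3 is the one library far above the rest.

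Ucp1, Dio2 and Ppargc1a are the members best known for their induction by cold and adrenergic signals, so their promoters are shown first. Each line is the 250 bases before a start of the gene in RefSeq on build GRCm38.p6, 5′ to 3′ on the gene's strand. Whether that start is the start of the counted gene model, which is on build mm9, was not tested. The windows are chr8:83290098-83290347 on the plus strand for Ucp1, chr12:90739039-90739288 on the minus strand for Dio2 and chr5:51567726-51567975 on the minus strand for Ppargc1a. Capitals mark matches, on either strand, to any of 7 motifs. They are the TATA box TATAAA, the cyclic AMP response element TGACGTCA, its core TGACG, the nuclear receptor core AGGTCA, the estrogen-related receptor element TNAAGGTCA, which contains that core, the CCAAT box and the GC box GGGCGG.
Ucp1: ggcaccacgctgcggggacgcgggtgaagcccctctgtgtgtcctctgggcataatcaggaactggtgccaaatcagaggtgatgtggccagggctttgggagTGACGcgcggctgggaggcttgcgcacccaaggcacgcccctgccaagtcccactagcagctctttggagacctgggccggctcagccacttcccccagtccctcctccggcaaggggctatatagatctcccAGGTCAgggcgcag
Dio2: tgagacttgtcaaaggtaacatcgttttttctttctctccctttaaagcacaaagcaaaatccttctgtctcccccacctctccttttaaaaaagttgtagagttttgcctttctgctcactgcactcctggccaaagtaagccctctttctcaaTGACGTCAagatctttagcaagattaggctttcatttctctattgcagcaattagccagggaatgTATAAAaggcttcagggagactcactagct
Ppargc1a: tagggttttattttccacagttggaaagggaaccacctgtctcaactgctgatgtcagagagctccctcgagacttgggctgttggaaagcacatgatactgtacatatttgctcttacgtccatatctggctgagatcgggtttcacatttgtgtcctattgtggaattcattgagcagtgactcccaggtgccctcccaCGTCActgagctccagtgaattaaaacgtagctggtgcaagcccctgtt
The Dio2 window holds TGACGTCA, the full cyclic AMP response element, to which CREB-type factors can bind, beginning 95 bases before the start, and TATAAA beginning 30 bases before it. The full element occurs in 1.55% of 32817 windows of this length and TATAAA in 12.4%. The Ucp1 and Ppargc1a windows hold only its shorter form TGACG, which lies inside the full element and occurs in 17.7% of windows. It begins 147 bases before the Ucp1 start and, on the opposite strand, 49 bases before the Ppargc1a start, where the capitals read CGTCA. Ucp1 also has the nuclear receptor core AGGTCA, found in 14.03% of windows, beginning 14 bases before its start. Promoters were matched for 7 of the 9 members, and no window was examined for Cidea or Elovl3. Cox8b had none of the 7 motifs, and Cox7a1 had CCAAT in its reverse form beginning 137 and 74 bases before the start. These are matches of letters in a short window, and the known distal enhancer of Ucp1 lies outside it.

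The effector of thermogenesis is Ucp1 (mm9, chr8:85814247-85822355, plus strand), the proton channel of the inner mitochondrial membrane. It had 914, 712, 3059.6 and 960.4 CPM in IL1_AB 1 to 4, against 1158, 1275, 912 and 825 CPM in IgG_Control 1 to 4. IL1_AB 3 was 3.35 times the median of the other 7 libraries, and the other 3 IL1_AB libraries lay among or below the IgG_Control libraries. The group means were 1412 ± 1104 CPM with the antibody and 1043 ± 209.6 CPM with IgG (SD, n = 4 each). IL1_AB over IgG_Control gave a log2 fold change of 0.44 ± 0.44 (SE), with a 95% interval from -0.54 to 1.42, and did not pass edgeR's quasi-likelihood test, with an unadjusted p of 0.341 and a Benjamini-Hochberg adjusted p of 0.9997. Without IL1_AB 3 it was -0.27 ± 0.20.

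**Figure D1:**
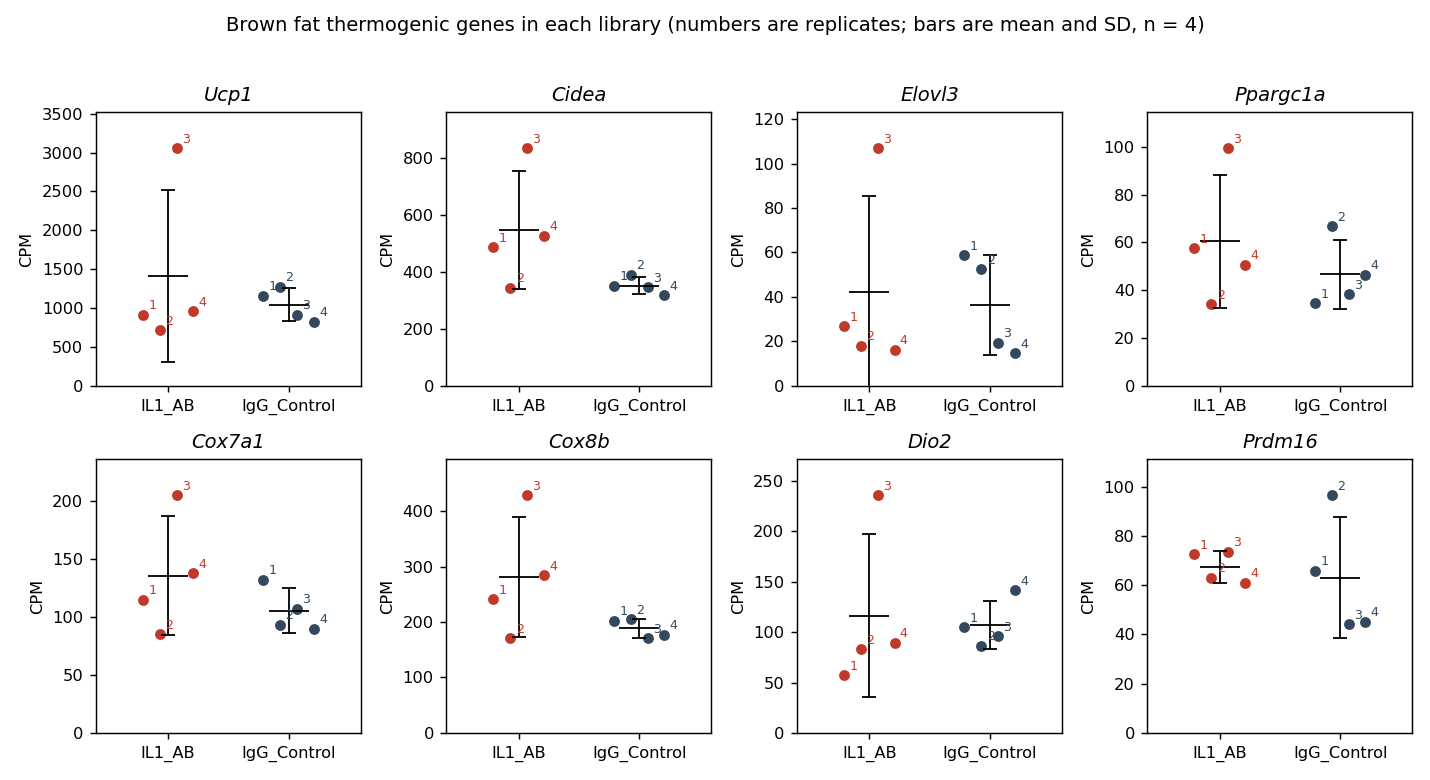
Levels of the 8 members kept, in CPM (linear axes from 0), in IL1_AB libraries (red) and IgG_Control libraries (dark blue), with the replicate number beside each point and bars for the mean and SD of 4 libraries. IL1_AB 3 is the top point in 7 of the 8 panels, and IgG_Control 2 is the top point for Prdm16. The lower end of the Elovl3 bar for IL1_AB falls below 0 and is not drawn.

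Dio2 and Ppargc1a feed the program from upstream. Dio2 (chr12:91962992-91976878, minus strand), the deiodinase that makes active thyroid hormone inside the brown adipocyte, had 57.0, 83.0, 236 and 89.3 CPM in IL1_AB 1 to 4, against 105, 86.3, 95.7 and 141 CPM in IgG_Control 1 to 4. The groups overlap, with the lowest and the highest value both in the antibody group. With all libraries the log2 fold change was 0.12 ± 0.40 (SE). Without IL1_AB 3 it was -0.49 ± 0.21, with an unadjusted edgeR p of 0.0493, where 2.08% of genes had a p under 0.05, and it did not pass after adjustment. Ppargc1a (chr5:51845488-51945160, minus strand), the coactivator that drives mitochondrial biogenesis, had 57.5, 34.1, 99.5 and 50.7 CPM in IL1_AB 1 to 4, against 34.6, 66.9, 38.4 and 46.5 CPM in IgG_Control 1 to 4. The 2 groups overlap over most of their range. The fold change on the log2 scale was 0.38 ± 0.32 (SE), and 0.03 ± 0.26 without IL1_AB 3.

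Prdm16 and Zic1 are transcription factors of brown fat identity. Prdm16 (chr4:153690234-154010982, minus strand), a transcriptional coregulator that holds cells in the brown fate and is also made in other cell types such as arterial endothelium, had 72.6, 63.0, 73.6 and 61.0 CPM in IL1_AB 1 to 4, against 65.9, 96.6, 44.1 and 45.2 CPM in IgG_Control 1 to 4. The IL1_AB libraries lie inside the IgG_Control range, and the fat-rich IL1_AB 3 stood only 1.17 times above the median of the other 7. On the log2 scale Prdm16 differed by 0.10 ± 0.24 (SE). The value was 0.38 ± 0.16 in edgeR without IgG_Control 2, its highest library, with an unadjusted p under 0.05 and an adjusted p of 0.902. In limma-voom with quality weights it was 0.51 ± 0.15, with an adjusted p of 0.207. Zic1 (chr9:91255183-91260637, minus strand), a zinc finger factor that marks the classical interscapular brown depot, had 0, 2, 2 and 0 counts in IL1_AB 1 to 4, against 4 counts in each of the 4 IgG_Control libraries. The groups do not overlap, but a count of 0 allows up to 3 counts, so the difference lies near the limit of detection. Among the genes kept, which exclude Zic1, 1.25% had all 4 IL1_AB libraries below all 4 IgG_Control libraries. The sums were 4 counts of 95652368 with the antibody (exact Poisson 95% interval 1.09 to 10.2) and 16 counts of 109210349 with IgG (9.15 to 26.0). These intervals cover counting error only. They may be too narrow, because 66.7% to 71.1% of the genes with 1 to 10 counts in a library had an even count, and whether the mates of a read pair were each counted is not given in the sources used here. In the edgeR fit without a low-count filter, Zic1 had an unadjusted p of 0.0735 and an adjusted p of 0.997 over 21589 genes. Zic1 was thus at the floor in libraries where Ucp1 ranked 34th, and no library had a Zic1 count above 4.

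Cidea and Elovl3 act on lipid. Cidea (chr18:67503218-67527448, plus strand), a lipid droplet protein abundant in brown fat, had 487, 344, 837 and 528 CPM in IL1_AB 1 to 4, against 352, 391, 346 and 318 CPM in IgG_Control 1 to 4. Antibody libraries 1, 3 and 4 lie above all 4 IgG_Control libraries, and IL1_AB 2 lies inside their narrow range. The means were 549 ± 207 CPM with the antibody and 352 ± 30.1 CPM with IgG (SD, n = 4 each). The log2 fold change of Cidea, 0.64 ± 0.24 (SE) with a 95% interval from 0.10 to 1.18, was the largest of the 8, with an unadjusted edgeR p of 0.0253 that did not hold after adjustment (0.9997). Without IL1_AB 3 it was 0.36 ± 0.17. Elovl3 (chr19:46206389-46210184, plus strand), a cold-induced elongase of very long chain fatty acids, had 26.9, 18.1, 107 and 16.2 CPM in IL1_AB 1 to 4, against 58.7, 52.5, 19.4 and 14.7 CPM in IgG_Control 1 to 4. It varied most of the 8, by 7.26 times between the lowest and the highest library, with IL1_AB 3, IgG_Control 1 and IgG_Control 2 high and the other 5 low. The groups overlap, at a log2 fold change of 0.21 ± 0.67 (SE), and -0.83 ± 0.49 without IL1_AB 3. Elovl3 shares exon bases with Pitx3 in the annotation, and reads over both genes are left out of its count.

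Cox7a1 and Cox8b are the heart and muscle type subunits of cytochrome c oxidase, the last complex of the respiratory chain, and brown fat uses them too. Cox8b (chr7:148084841-148086345, minus strand) had 241, 171, 429 and 284 CPM in IL1_AB 1 to 4, against 202, 205, 171 and 177 CPM in IgG_Control 1 to 4. As for Cidea, antibody libraries 1, 3 and 4 lie above all IgG_Control libraries and IL1_AB 2 does not. The log2 difference for Cox8b was 0.58 ± 0.24 (SE), with a 95% interval from 0.03 to 1.12, an unadjusted edgeR p of 0.0419 and an adjusted p of 0.9997, and it was 0.30 ± 0.18 without IL1_AB 3. Cox7a1 (chr7:30969190-30971049, plus strand) had 115, 85.03, 205 and 138 CPM in IL1_AB 1 to 4, against 132, 93.3, 107 and 90.0 CPM in IgG_Control 1 to 4. The groups overlap, with a log2 fold change of 0.36 ± 0.25 (SE), and 0.09 ± 0.20 without IL1_AB 3. IgG_Control 2, the library with heart transcripts, had 205 CPM of Cox8b beside 202 CPM in IgG_Control 1, and for Cox7a1 it lay between IgG_Control 4 and IgG_Control 3.

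Across the 8 members kept, 0 passed an adjusted p of 0.05 in edgeR, where 0.00% of all genes passed, and 0 passed in DESeq2 or limma-voom, where 0.0501% and 0.0125% of genes passed. At an unadjusted edgeR p under 0.05 there were 2 members, Cidea and Cox8b, both higher, against 3.19% of all genes, 1.13% higher and 2.06% lower. DESeq2 also gave 2 members at an unadjusted p under 0.05, beside 3.54% of genes, and limma-voom gave 3, Cidea, Cox8b and Prdm16, beside 17.3%. None of the 8 members kept had all 4 IL1_AB libraries above all 4 IgG_Control libraries, a pattern shown by 0.713% of genes. None of these 8 had them all below, shown by 1.25%, whereas Zic1, which was not kept, did. The fold changes of all 8 members were above 0, with a median of 0.37 on the log2 scale, against 47.7% of all genes above 0 and a median of -0.01. That shared direction did not hold in every fit. Without IL1_AB 3, 5 of the 8 were above 0, with a median of 0.04, beside 46.0% of all genes. Without IgG_Control 4 there were 6 and without IgG_Control 3 there were 7, whereas leaving out any of the other 5 libraries left all 8 above 0. With IgG_Control 2 left out as well, again 5 were above 0, and Cidea had 0.44 ± 0.18 and Dio2 -0.56 ± 0.22 (log2, SE). Cidea, Ppargc1a, Cox7a1, Cox8b and Prdm16 kept a positive value in both of these fits, and Ucp1, Elovl3 and Dio2 were negative in both.

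General adipocyte genes were measured beside the members. The 17 general adipocyte genes, such as Adipoq and Plin1, were all detected in every library and summed to between 9228 and 18793 CPM in IL1_AB libraries and between 10640 and 12049 CPM in IgG_Control libraries. Of these 17, 16 had fold changes above 0, with a median of 0.26 that was 0.05 without IL1_AB 3, and 0 passed the adjusted threshold. Over all genes, 47.7% had fold changes above 0 and 0.00% passed that threshold. With the adipocyte score (the mean log2 CPM of the 17 genes) as a covariate, 3 of the 8 members were above 0, with a median of -0.06, beside 46.9% of all genes, and 0 had an unadjusted p under 0.05, as had 3.14% of genes. The log2 fold changes were then 0.27 ± 0.13 for Cidea, 0.20 ± 0.14 for Cox8b, 0.04 ± 0.22 for Cox7a1, -0.01 ± 0.24 for Prdm16, -0.11 ± 0.12 for Ppargc1a, -0.30 ± 0.27 for Ucp1, -0.38 ± 0.36 for Dio2 and -0.76 ± 0.61 for Elovl3 (SE). The 95% interval of each spans 0. The fold changes of all 8 macrophage genes were below 0, at a median of -0.34, with sums of 4810 to 7091 CPM in IL1_AB and 4040 to 10865 CPM in IgG_Control libraries. With a macrophage score as the covariate, 6 of the 8 members were above 0.

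**Figure D2:**
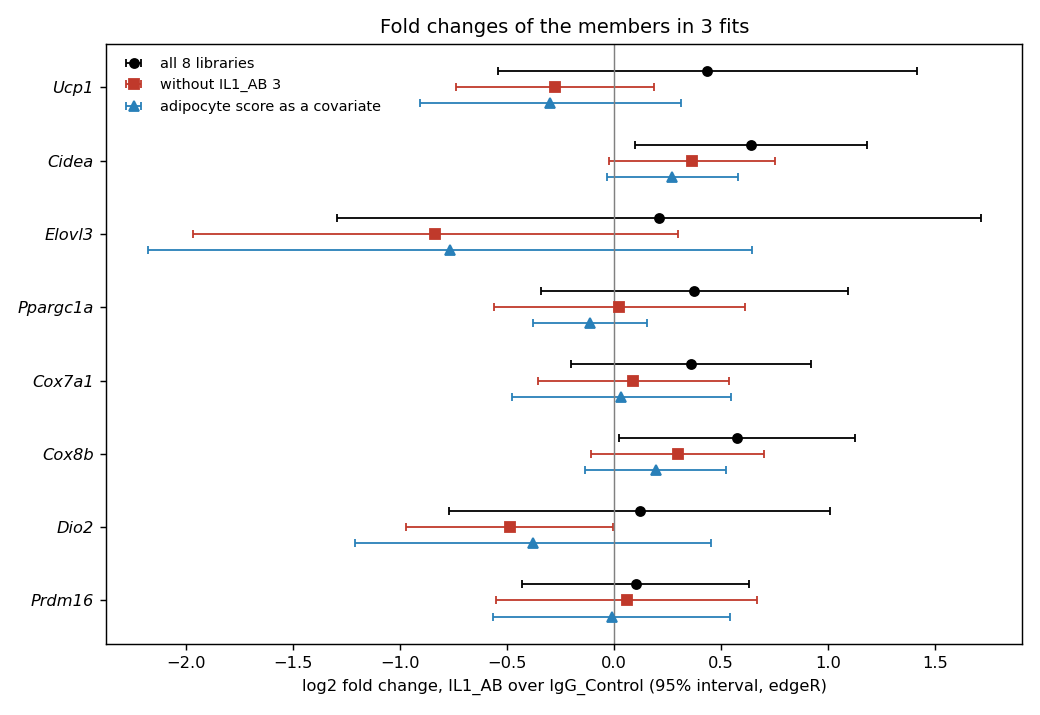
Log2 fold change of IL1_AB over IgG_Control for the 8 members kept (horizontal axis; positive is higher with the antibody), with 95% intervals from edgeR, in all 8 libraries (black circles), without IL1_AB 3 (red squares) and with the adipocyte score as a covariate (blue triangles). All 8 circles lie right of 0, 5 of the 8 squares and 3 of the 8 triangles do, and among the circles only the intervals of Cidea and Cox8b stay clear of 0.

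The members divided by how closely they followed the adipocyte score over the 8 libraries. Ppargc1a followed it most closely, with Pearson r = 0.970 and Spearman rho = 0.929 (two-sided exact permutation tests over 8 libraries, adjusted over 23 correlations, p = 0.0040 for r and 0.0513 for rho), and r was 0.912 without the 2 libraries farthest from the median score. Cidea had r = 0.928 and rho = 0.810 (exact permutation, adjusted p = 0.0184 and 0.107), and 0.788 without those 2. Cox8b had r = 0.924 and rho = 0.857 (exact permutation, adjusted p = 0.0184 and 0.107), and 0.716 without them. Ucp1 had r = 0.845 and rho = 0.690 (exact permutation, adjusted p = 0.0642 and 0.145), which rested on those 2 libraries, IL1_AB 3 and IL1_AB 2, since r was 0.10 without them. Cox7a1 at 0.750, Elovl3 at 0.589, Dio2 at 0.519 and Prdm16 at 0.449 had lower r with the adipocyte score, none below an adjusted p of 0.05. Dio2 ran against the skeletal muscle score, with r = -0.774 and rho = -0.786 (exact permutation, adjusted p = 0.0642 and 0.107), which did not pass; the skeletal muscle genes summed to 29.0 to 71.1 CPM in IL1_AB and 25.6 to 102 CPM in IgG_Control libraries. Against Ucp1 itself, Elovl3 had r = 0.879 and rho = 0.786 (exact permutation, adjusted p = 0.0184 and 0.107), and r was 0.748 without IL1_AB 3 and IgG_Control 2. The libraries high in both beside IL1_AB 3 were IgG_Control 1 and 2. Other members had similar r with Ucp1, at 0.833 for Cox8b, 0.83 for Cox7a1, 0.810 for Ppargc1a, 0.809 for Cidea, 0.727 for Dio2 and 0.447 for Prdm16, none below an adjusted p of 0.05. Without IL1_AB 3 and IgG_Control 2 these were 0.431, 0.876, 0.035, 0.252, 0.044 and 0.227 in the same order, so that Cox7a1 and Elovl3 kept the highest values. Without IL1_AB 3 alone they were 0.330, 0.412, 0.450, 0.199, -0.024 and 0.594 in that order, and Elovl3 had 0.836. With group means subtracted from log2 CPM, 6 correlations not below an adjusted p of 0.05 came below it (exact permutation). Cidea (r = 0.941), Cox8b (0.924), Cox7a1 (0.843) and Ppargc1a (0.811) did so with Ucp1. Ucp1 did so with the adipocyte score (0.869) and Dio2 with the skeletal muscle score (-0.781). These values include IL1_AB 3. Genes were not compared for these r values by a test of the difference, and the libraries share their depth and scaling across all genes.

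**Figure D3:**
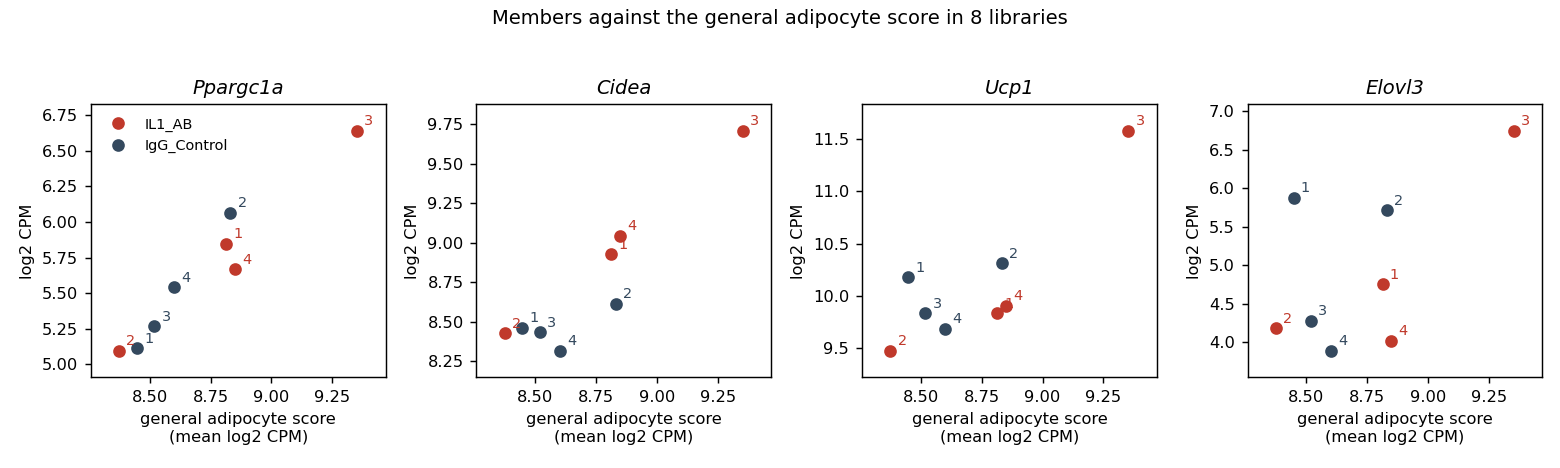
Log2 CPM of Ppargc1a, Cidea, Ucp1 and Elovl3 (vertical axes) against the adipocyte score, the mean log2 CPM of 17 adipocyte genes (horizontal axes), in each IL1_AB (red) and IgG_Control (dark blue) library, numbered by replicate. Ppargc1a falls along a line (r = 0.970), whereas Ucp1 and Elovl3 are high in IgG_Control 1, whose score is low.

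Relative to Adipoq, the adipocyte hormone adiponectin, Ucp1 varied between libraries within both groups. The log2 ratio of Ucp1 to Adipoq CPM was 1.77, 1.76, 2.91 and 1.73 in IL1_AB 1 to 4, against 2.72, 2.58, 2.01 and 1.47 in IgG_Control 1 to 4. IL1_AB 3 and IgG_Control 1 and 2 were high, and the other 5 low. The means were 2.04 ± 0.58 with the antibody and 2.19 ± 0.57 with IgG (SD, n = 4 each), a difference of -0.15 (two-sided exact permutation test over 70 assignments, p = 0.83, where the smallest possible p is 0.0286). Th, the rate-limiting enzyme of noradrenaline synthesis, had 147, 161, 119 and 64.1 CPM in IL1_AB 1 to 4, against 228, 22.04, 50.1 and 93.1 CPM in IgG_Control 1 to 4. Th was highest in IgG_Control 1 and lowest in IgG_Control 2, and these were the 2 libraries next below IL1_AB 3 for Ucp1.

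Several members have close relatives. Per exon length, Ucp1, Cidea, Cox7a1 and Cox8b led the relatives measured here on average, while Elovl3, Ppargc1a and Prdm16 did not. Ucp1 averaged 859 ± 671 RPKM in IL1_AB and 634 ± 127 RPKM in IgG_Control libraries, against 93.7 ± 2.25 and 108 ± 19.8 RPKM for Ucp2, the widely expressed relative, and 19.5 ± 8.09 and 15.8 ± 4.78 RPKM for Ucp3 (SD, n = 4 each). Ucp3 was highest in IL1_AB 3, at 74.5 CPM, where no other library exceeded 55.9 CPM. Cidea averaged 472 ± 178 RPKM in IL1_AB and 302 ± 25.9 RPKM in IgG_Control libraries, above Cidec, the droplet protein of large white adipocytes, at 176 ± 65.8 and 138 ± 26.3 RPKM. Elovl3 averaged 22.4 ± 23.2 RPKM in IL1_AB and 19.3 ± 11.97 RPKM in IgG_Control libraries, against 60.5 ± 30.0 and 56.5 ± 30.3 RPKM for Elovl6, which elongates saturated and monounsaturated fatty acids. Ppargc1a, at 9.31 ± 4.29 RPKM in IL1_AB and 7.17 ± 2.22 RPKM in IgG_Control libraries, lay beside its relative Ppargc1b at 16.3 ± 6.16 and 12.9 ± 7.89 RPKM. Prdm16, at 7.85 ± 0.75 RPKM in IL1_AB and 7.31 ± 2.85 RPKM in IgG_Control libraries, lay beside Mecom at 9.23 ± 1.59 and 10.7 ± 1.88 RPKM, and both pairs overlap across libraries.

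**Figure D4:**
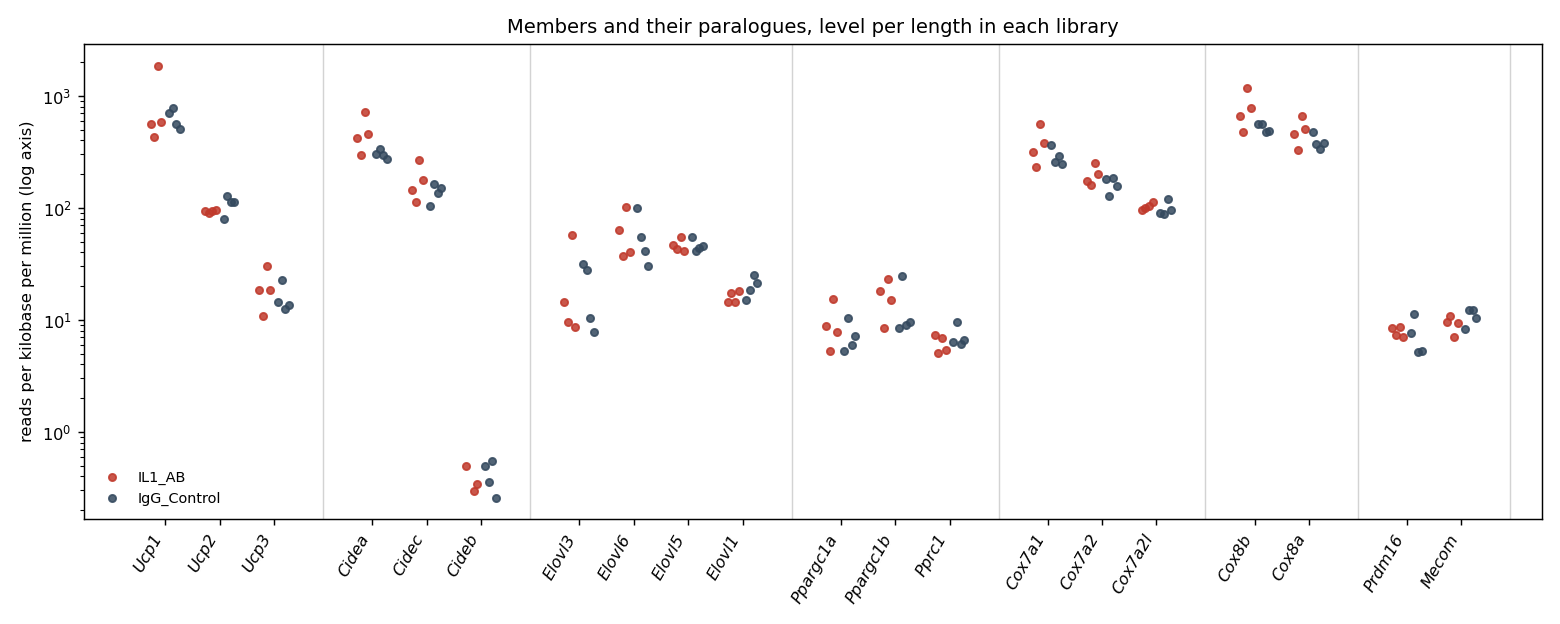
Level per exon length (RPKM, log axis) of 7 members and their relatives in each IL1_AB (red) and IgG_Control (dark blue) library. Ucp1, Cidea, Cox7a1 and Cox8b lie above their relatives on average, and Elovl3, Ppargc1a and Prdm16 average below Elovl6, Ppargc1b and Mecom. The library in which Cideb is at 0 cannot be drawn on a log axis.

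For the oxidase subunits the muscle type can be set against its ubiquitous relative within each library, which does not depend on library scaling. The lead of the muscle type was one per exon length. In CPM, the medians of the 7 libraries other than IL1_AB 3 were 107 for Cox7a1 and 130 for Cox7a2, and 202 for Cox8b and 207 for Cox8a. In IL1_AB 3 they were at 205 and 190 CPM, and at 429 and 357 CPM. Cox7a1 made up 64.5%, 59.3%, 69.0% and 65.1% of Cox7a1 plus Cox7a2 per length in IL1_AB 1 to 4, against 66.8%, 66.5%, 61.2% and 61.0% in IgG_Control 1 to 4. The groups overlap throughout, with means of 64.5% ± 3.98 and 63.9% ± 3.22 (SD, n = 4 each; two-sided exact permutation p = 0.800). Cox8b made up 59.2%, 58.8%, 64.3% and 60.9% of Cox8b plus Cox8a in IL1_AB 1 to 4, against 54.0%, 60.1%, 58.5% and 56.3% in IgG_Control 1 to 4. Antibody libraries 3 and 4 lie above all IgG_Control libraries, and the means were 60.8% ± 2.51 and 57.2% ± 2.63 (SD, n = 4 each; two-sided exact permutation p = 0.114).

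Other genes of brown fat were followed beside the members. Of 27 further brown fat genes, 26 were kept, and 24 of these had fold changes above 0 and 2 below, with a median of 0.37 on the log2 scale, where 47.7% of all genes were above 0. With IL1_AB 3 left out their median was 0.14, with the adipocyte score as a covariate it was 0.07, and 21 of the 26 had their highest level in that library. In edgeR 0 passed the adjusted threshold, and at an unadjusted p under 0.05 there were 2, both higher, where 3.19% of all genes had such a p. Ebf2, a factor that opens brown fat gene chromatin, averaged 74.3 ± 12.2 CPM in IL1_AB and 55.6 ± 12.3 CPM in IgG_Control libraries, with a log2 fold change of 0.42 ± 0.17 (SE). Pank1, which makes coenzyme A from pantothenate, averaged 169 ± 55.7 CPM in IL1_AB and 116 ± 17.3 CPM in IgG_Control libraries (log2 fold change 0.54 ± 0.22, SE). Ppara, the nuclear receptor of fatty acid oxidation, had 0.78 ± 0.37, and its 8 libraries ranged from 64.0 CPM in IgG_Control 1 to 421 CPM in IL1_AB 3. Fgf21, a hormone that cold-stimulated brown fat can release, did not pass the filter.

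All 12 genes followed along the adrenergic route, from nerve to kinase, had counts in every library. These are levels of the whole piece of tissue, and which cells made each RNA was not tested. Adrb3, the main β-receptor of mouse adipocytes, had 77.3, 63.1, 151 and 75.4 CPM in IL1_AB 1 to 4, against 57.8, 145, 63.4 and 67.0 CPM in IgG_Control 1 to 4. The highest values of both groups, in IL1_AB 3 and IgG_Control 2, are close. Of these 12, 10 had fold changes above 0 and 2 below, with a median of 0.27, where 47.7% of all genes were above 0. The median was 0.16 without IL1_AB 3 and 0.14 with the adipocyte score as a covariate. At an unadjusted edgeR p under 0.05 there were 0, against 3.19% of all genes. IL1_AB 3 was the highest library for 6 of the 12, among them Gnas, Prkar2b, Prkaca and Adcy3, against 15.2% of all genes kept. The smallest p values belonged to Gnas, the stimulatory G protein (0.39 ± 0.19, log2, SE), Prkar2b and Prkaca, subunits of protein kinase A (0.45 ± 0.22 and 0.25 ± 0.12), and Adcy3, an adenylyl cyclase (0.29 ± 0.22). Among 25 transcriptional regulators of brown fat, 15 were above 0 and 10 below, with a median of 0.06, where 47.7% of all genes were above 0. Their median was -0.003 without IL1_AB 3 and -0.04 with the adipocyte score as a covariate. At an unadjusted edgeR p under 0.05 there were 2, both higher, against 1.13% of all genes higher. Besides Ebf2, Sirt3, a mitochondrial deacetylase, had an unadjusted edgeR p of 0.0490, with 0.40 ± 0.18, and Thra, a thyroid hormone receptor, had 0.24 ± 0.13. Sirt3 was highest in IL1_AB 3, at 39.4 CPM, where the median of the other 7 libraries was 23.5 CPM.

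Genes proposed as marks of beige adipocytes, the inducible thermogenic cells of white depots, were split in direction. Of 10, 8 were kept, with 4 above 0 and 4 below and a median of 0.00, where 47.7% of all genes were above 0. Tmem26, a membrane protein used as a beige surface marker, had 10.2, 10.1, 9.23 and 11.3 CPM in IL1_AB 1 to 4, against 12.5, 15.8, 18.9 and 21.3 CPM in IgG_Control 1 to 4. The groups do not overlap, as for 1.25% of all genes in this direction. On the log2 scale the difference was -0.75 ± 0.17 (SE), with an unadjusted edgeR p of 0.00147 and an adjusted p of 0.9997. Epsti1, which also responds to interferon, likewise did not overlap and had -0.51 ± 0.16. The other 2 with the smallest p were Shox2 (0.37 ± 0.22) and Slc36a2, an amino acid transporter of brown and beige cells (0.41 ± 0.25). Of 10 genes enriched in white fat, 7 were kept, 1 above 0 and 6 below, with a median of -0.31. Lep, the hormone leptin, 1 of the 7, had 28.8, 14.02, 7.39 and 12.9 CPM in IL1_AB 1 to 4, against 103, 15.1, 9.09 and 8.44 CPM in IgG_Control 1 to 4, with IgG_Control 1 high and IL1_AB 3 lowest. Hoxc8 and Hoxc10, which mark fat of the lower body, did not pass the filter.

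The genes whose log2 CPM was most like that of Ucp1 over the 8 libraries were 4931406C07Rik (r = 0.978), Xaf1 and Snrk (both 0.976), Pafah2 (0.974), Egln1, Ddhd2, Irf7 and Gbp3 (all 0.973), and Dnpep (0.972). They were taken from all genes kept, so high values of r are selected for and carry no p. All 9 had their highest level in IL1_AB 3. Without IL1_AB 3, r ranged from 0.825 for Irf7 to 0.957 for Egln1, an oxygen-sensing prolyl hydroxylase, and Egln1 was the one of the 9 that was also among the 10 most alike in those 7 libraries.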

How the data were processed

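The deposited table holds raw counts of reads per gene symbol for 8 libraries. FeatureCounts 1.4.6-p4 made it from exon features of the UCSC mm9 gene models, per the file headers, and its command shows no option for strand, read pairs or multimapping reads, so antisense reads count for a gene and reads shared by near-identical copies are lost. A deposited status table of counts of alignments gave 24.4% to 34.9% assigned and 35.2% to 48.0% multimapping. The lowest assigned shares were those of IgG_Control 2 (24.4%, with 48.0% multimapping) and IL1_AB 3 (27.9%, with 43.0% multimapping). STAR 3.0, CASAVA, DESeq2 and Subread are named in the submitters' processing notes without a role. The exon length in the deposited table (in bases) served for RPKM alone.

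Genes were kept by edgeR's filterByExpr (minimum count 10, minimum total 15), scaled by TMM and tested, IL1_AB over IgG_Control, by robust quasi-likelihood in edgeR 4.0.16 under R 4.3.3, without covariates, with Benjamini-Hochberg adjustment over 15980 genes and a threshold of 0.05. CPM use TMM-scaled library sizes, log2 CPM a prior count of 2, and the Ucp1 to Adipoq ratio a pseudocount of 0.5. Standard errors derive from the F statistic. Alternatives were DESeq2 1.42.0, limma-voom (limma 3.58.1), other scalings and filters, covariates and left-out libraries. The fits were tested on simulated data.

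The members and all gene lists were chosen with earlier results of these data known. Named genes are the 9 members, up to 4 genes per list with the smallest p, relatives of a member, and the 10 genes with the highest Pearson r with Ucp1, of which 1 is not reported here; other genes, such as Adrb3, Th and the Hox genes, were named after their values were seen. Promoter sequences are from RefSeq on GRCm38.p6, and gene coordinates are those of mm9.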

Additional observations from a re-analysis of the deposited data

Results flagged for a closer look

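Among 22 sets of 4 libraries examined (members and within-library ratios, by group), 3 had 1 library far from the other 3, all of them IL1_AB 3. Chance gives such a gap in about 1 in 20 sets only if values are normally distributed. Here CPM were taken on a linear scale, and gaps of log2 CPM were not tested. The sets are also not independent, since they share libraries and Ucp1 enters both its CPM and its ratio to Adipoq. Ucp1 was at 3059.6 CPM in IL1_AB 3 and at 712 to 960.4 CPM in the other IL1_AB libraries, a gap of 0.894 of the whole range, past the 95% critical value of Dixon's test. Elovl3 was at 107 CPM, against 16.2 to 26.9 CPM, a gap of 0.882. The log2 ratio of Ucp1 to Adipoq was 2.91, against 1.73 to 1.77, a gap of 0.968. The part of dissection or of any other cause in these values was not tested.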

How the results depend on the processing

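Under all 21 alternatives 0 members and 0 list genes passed the adjusted threshold. The number of genes passing was 8 in DESeq2, 2 in limma-voom and 0 to 1 when 1 library was left out. Members at an unadjusted p under 0.05 numbered 1 with the library number or the skeletal muscle score as a covariate, 0 with the adipocyte or the macrophage score, and 0 to 3 when 1 library was left out. Of all 15980 genes, 578, 537, 502 and 562 had such a p in these covariate fits, in that order. It was 310 of 16051 genes without IgG_Control 4, the fit with 0 members, and 783 of 16019 without IL1_AB 2, the fit with 3. Without IgG_Control 1, where 1 member had such a p, it was 1517 of 15973. The replicate numbers did not pair the samples (correlations of deviations between same-numbered libraries 0.29, -0.34, -0.13 and -0.00; 1 of 4 IL1_AB libraries correlated best with its own number). With the replicate block 0 members had an unadjusted p under 0.05, beside 361 of 15980 genes, with Elovl3 at -0.10 and Dio2 at -0.090. Fold changes turned negative as follows (log2). With the adipocyte score, Ucp1 was -0.30, Elovl3 -0.76, Ppargc1a -0.11, Dio2 -0.38 and Prdm16 -0.011. Without IL1_AB 3, Ucp1 was -0.27, Elovl3 -0.83 and Dio2 -0.49. Without IL1_AB 3 and IgG_Control 2, chosen after seeing the data, they were -0.15, -0.59 and -0.56. With the skeletal muscle score, Elovl3 was -0.16 and Dio2 -0.13. With the macrophage score, also chosen after seeing the data, Elovl3 was -0.59 and Prdm16 -0.10. Dio2 was -0.58 in limma-voom. Elovl3 was -0.05 without IgG_Control 4, and Prdm16 -0.034 without IgG_Control 3 and -0.027 without IgG_Control 4. When 1 library was left out, the fold changes of these 4 reached at most 0.64 for Ucp1, 0.52 for Elovl3, 0.34 for Dio2 and 0.38 for Prdm16, the last without IgG_Control 2. Correlations with the adipocyte score turned to -0.13 for Elovl3, -0.022 for Cox7a1 and -0.57 for Dio2 without the 2 farthest libraries, and those with the skeletal muscle score to 0.16 for Cidea, 0.37 for Elovl3 and 0.093 for Cox8b. The difference in the Cox7a1 share ranged from -0.917 to 2.31 percentage points when 1 library was left out (-0.917 without IL1_AB 3, -0.302 without IgG_Control 3 and -0.371 without IgG_Control 4) and was -0.0422 without IL1_AB 3 and IgG_Control 2. The Ucp1 to Adipoq difference ranged from -0.44 to 0.026, the last without IgG_Control 1. The cause was not tested for any of these. Cidea, Cox8b and Cox7a1 kept a positive fold change under all 21 alternatives. The width of the intervals limits what 4 animals a group can show, and Zic1 lies at the counting floor.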
